A study of Homo sapiens with 6 samples.

Results

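BCL2L2, PABPN1 and the annotated readthrough BCL2L2-PABPN1 lie head to tail on the plus strand of chromosome 14. Their RNA was followed in PC9 cells, a human lung adenocarcinoma line with an activating EGFR mutation. The rows were taken by gene name from both deposited tables, which gave 3 of 58825 genes and 17 of 208460 transcripts. The locus was selected on the measured FPKM of BCL2L2, which was among the genes called in the comparison of G with A. All values of that comparison given here for the 3 genes are therefore descriptions, with no test. FOXM1, a cell cycle transcription factor, was overexpressed in all libraries, with the G allele of rs3742076 in 3 (G libraries) and the A allele in 3 (A libraries). Cells of both groups had received the EGFR inhibitor gefitinib at 100 nM over 24 h, so that overexpressed FOXM1 and the drug are shared by all 6 libraries. Neither the vector nor the number of clones is stated in the labels, and they do not say whether replicates were separate cultures. Any p-value here rests on spread among these 6 libraries, and that spread can be technical.

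Depth was estimated at 20240000 to 23360000 read-pair equivalents in G libraries and 19820000 to 22940000 in A libraries. FOXM1 mRNA ranged from 13.96 to 14.6 FPKM in G libraries and from 10.1 to 25.5 FPKM in A libraries, so its level does not tell the alleles apart. Of 7 epithelial markers, 6 were above 1 FPKM in every library, with summed levels of 2682 to 2865 FPKM in G libraries and 2792 to 3435 FPKM in A libraries. All 5 lung lineage markers, among them NKX2-1 and SFTPB, stayed below 1 FPKM in every library. Endothelial markers summed to at most 0.673 FPKM in G and 0.531 FPKM in A libraries, and leukocyte markers to at most 1.19 FPKM in G and 1.51 FPKM in A libraries. For fibroblast markers the highest sums were 2.39 FPKM in G and 1.96 FPKM in A libraries.

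BCL2L2 encodes BCL-w, a relative of BCL2 that sits on the outer mitochondrial membrane and restrains BAX and BAK, the proteins that open this membrane in apoptosis. PABPN1 encodes the nuclear poly(A) binding protein, which coats growing poly(A) tails, stimulates poly(A) polymerase and restrains the use of upstream polyadenylation sites. PABPN1 is also known to limit its own mRNA, by retention of the last intron of its transcript and decay of that RNA in the nucleus. A readthrough transcript runs past the end of one gene and is spliced into the next. Here it can join BCL-w, without the part encoded in the last BCL2L2 exon, to most of PABPN1.

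Positions are given on GRCh38. BCL2L2 (ENSG00000129473) spans 23298790 to 23311759, BCL2L2-PABPN1 (ENSG00000258643) spans 23306835 to 23325369 and PABPN1 (ENSG00000100836) spans 23321289 to 23326185. Between the end of BCL2L2 and the start of PABPN1 lie 9529 bases. The full-length BCL2L2 mRNA, BCL2L2-201 (ENST00000250405), has 4 exons. Its start codon is in exon 3, and its exon 4 of 2944 bases holds the last 150 coding bases and a 3′ untranslated region of 2794 bases. Exon 3 ends at 23308199, a splice donor that the annotation joins to 3 different exons. The sequences across these joins show what separates a BCL2L2 mRNA from a readthrough, and those of PABPN1 show its first join and both fates of its last intron. They were read from GENCODE 29 transcripts (GRCh38, plus strand, 5′ to 3′), with 15 bases on each side and the bases after the join in capitals.
BCL2L2 exon 3 to exon 4: agcagtgggggctggGCGGAGTTCACAGCT
BCL2L2 exon 3 to the exon between the genes: agcagtgggggctggTTATCCCAGATCACT
BCL2L2 exon 3 to PABPN1 exon 2: agcagtgggggctggGAGCTGGAAGCTATC
PABPN1 exon 1 to exon 2: gccattgaggacccgGAGCTGGAAGCTATC
PABPN1 exon 6 to exon 7: gggtcgcgtctacagGGGCCGGGCTAGAGC
PABPN1 exon 6 into the last intron: gggtcgcgtctacagGTCAGGATAGATGGG
The readthrough and PABPN1 itself thus enter PABPN1 exon 2 with the same 15 bases and differ before them. The donor of the last intron begins with GT, and its in-frame stop codon ends 10 bases past exon 6.

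BCL2L2 was far lower in G libraries, with no overlap between groups. Its gene level was 1.01, 1.17 and 0.871 FPKM in G libraries, against 10.2, 6.95 and 10.7 FPKM in A libraries. The means were 1.02 ± 0.149 FPKM in G and 9.28 ± 2.04 FPKM in A (SD, n = 3 each), a 9.14-fold lower level. On the log2(FPKM + 1) scale the G minus A difference was -2.33 ± 0.159 (SE from limma-trend). The authors' deposited table, which adds no pseudocount, gives -3.19. By mean level BCL2L2 ranked 12728 among 58825 genes in G libraries and 4102 in A libraries. BCL2L2 was 1 of 14 genes called among 12787 tested (0.109%), of which 4 (0.0313%) were higher and 10 (0.0782%) lower in G, or 7 higher and 8 lower with equal sums per library. Groups did not overlap, with G below A, in 9.57% of tested genes. As this comparison chose the locus, nothing is read from these shares. FOXM1 mRNA stood apart in A replicate 1, and without that library the BCL2L2 difference was -2.26.

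PABPN1, which starts 9529 bases past the end of BCL2L2, showed no such difference. Its gene level was 20.2, 23.4 and 21.7 FPKM in G libraries, against 22.5, 20.2 and 20.7 FPKM in A libraries. The groups overlapped, with means of 21.7 ± 1.57 FPKM in G and 21.1 ± 1.24 FPKM in A and a log2 difference of 0.039 ± 0.073 (SE). BCL2L2-PABPN1 was low in both groups, at 0.189, 0.905 and 0.341 FPKM in G libraries and 0.389, 1.12 and 0.408 FPKM in A libraries. Its groups overlapped too, and the log2 difference was -0.15. BCL2L2-PABPN1 did not pass the filter of 1 FPKM in 3 libraries, so 2 of the 3 genes entered the fit.

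**Figure D1:**
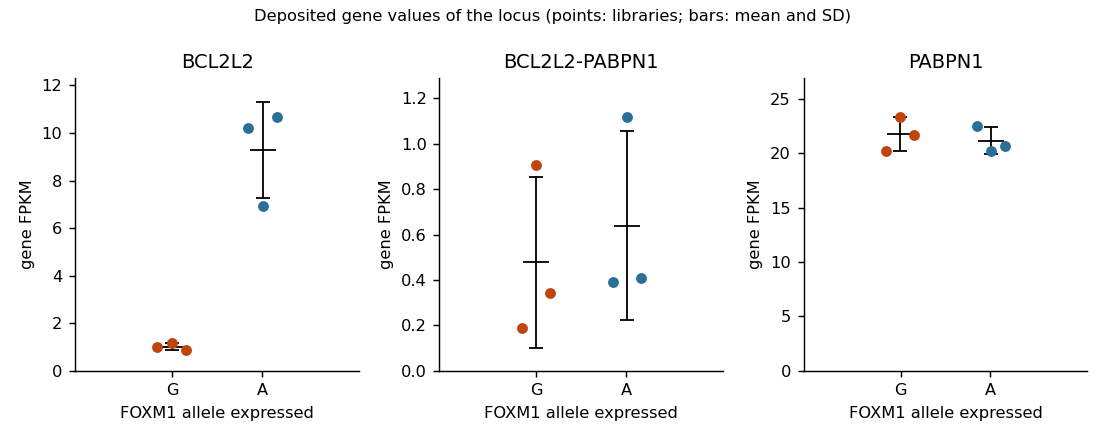
Deposited gene FPKM (vertical axes, each from 0) of BCL2L2, BCL2L2-PABPN1 and PABPN1 in G libraries (left in each panel) and A libraries (right). Points are libraries and bars are means with SD; the 3 G libraries of BCL2L2 sit between 0.871 and 1.17 FPKM, below the A libraries at 6.95 to 10.7 FPKM, while the groups overlap for the other genes.

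The fall of the BCL2L2 gene level came with the full-length transcript. BCL2L2-201 was at 0.453, 0.139 and 0.254 FPKM in G libraries, against 11.5, 7.48 and 12.0 FPKM in A libraries. Every G library was below every A library, with means of 0.282 ± 0.159 FPKM in G and 10.3 ± 2.47 FPKM in A (SD, n = 3 each), a 36.6-fold lower level in G. This corresponded to about 35.2, 10.2 and 21.4 read pairs in G libraries and 896, 618 and 855 read pairs in A libraries. BCL2L2-201 made up 5.46% ± 3.75 of the summed BCL2L2 transcript FPKM in G libraries and 77.1% ± 8.84 in A libraries.

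Summed, the other BCL2L2 transcripts were higher in G libraries. All 4 that had an estimate are fragments whose 3′ end is marked as not found in the annotation, so they stop before the end of exon 4. BCL2L2-206 (ENST00000557579), 596 bases long, ends with exon 3. Its level was 2.74, 5.10 and 2.84 FPKM in G libraries, against 1.38, 2.75 and 2.01 FPKM in A libraries. The lowest G library lay just under the highest A library. BCL2L2-205 (ENST00000557236), which reaches 15 bases into exon 4, was at 0.530, 1.02 and 0.878 FPKM in G libraries. In A libraries BCL2L2-205 had no estimate in replicate 1 and was at 0.244 and 0.0026 FPKM in the others, so the groups did not overlap. BCL2L2-202 (ENST00000553824), which starts in an upstream exon of its own and ends within exon 3, ranged from 0.397 to 0.613 FPKM in G libraries and from no estimate to 0.465 FPKM in A libraries. BCL2L2-203 (ENST00000554635) ranged from 0.494 to 0.695 FPKM in G and from 0.419 to 0.804 FPKM in A libraries. BCL2L2-204 (ENST00000556599) had no estimate in any library. Together the BCL2L2 transcripts other than BCL2L2-201 reached 4.40, 7.43 and 4.61 FPKM in G libraries, against 2.26, 3.67 and 2.85 FPKM in A libraries. These sums did not overlap and were 1.87-fold higher in G. They rest on few reads. All BCL2L2 transcripts, BCL2L2-201 included, held about 91.0, 99.2 and 85.3 read pairs in G libraries. In A libraries BCL2L2-201 took about 896, 618 and 855 of 924, 668 and 888 read pairs. The sums also follow how reads were shared out between BCL2L2-201 and the shorter BCL2L2 transcripts. The readthrough transcripts share exon 3 with them. With these included, transcripts other than BCL2L2-201 that hold the start codon summed to 4.85, 9.57 and 5.42 FPKM in G libraries. In A libraries they summed to 3.18, 6.32 and 3.81 FPKM. Those sums overlapped between the groups, and their mean was 1.49-fold higher in G.

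Of the 17 transcripts of the locus 6 passed the filter, 13 had an estimate in at least 1 library and 4 had none. Groups did not overlap for 2 of the 13, BCL2L2-201 with G below A and BCL2L2-205 with G above A. The share without overlap was 9.9% among all 118784 transcripts with an estimate. In the fit of all transcripts 44 of 29990 were called (0.147%), BCL2L2-201 among them, by the comparison that chose the locus.

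**Figure D2:**
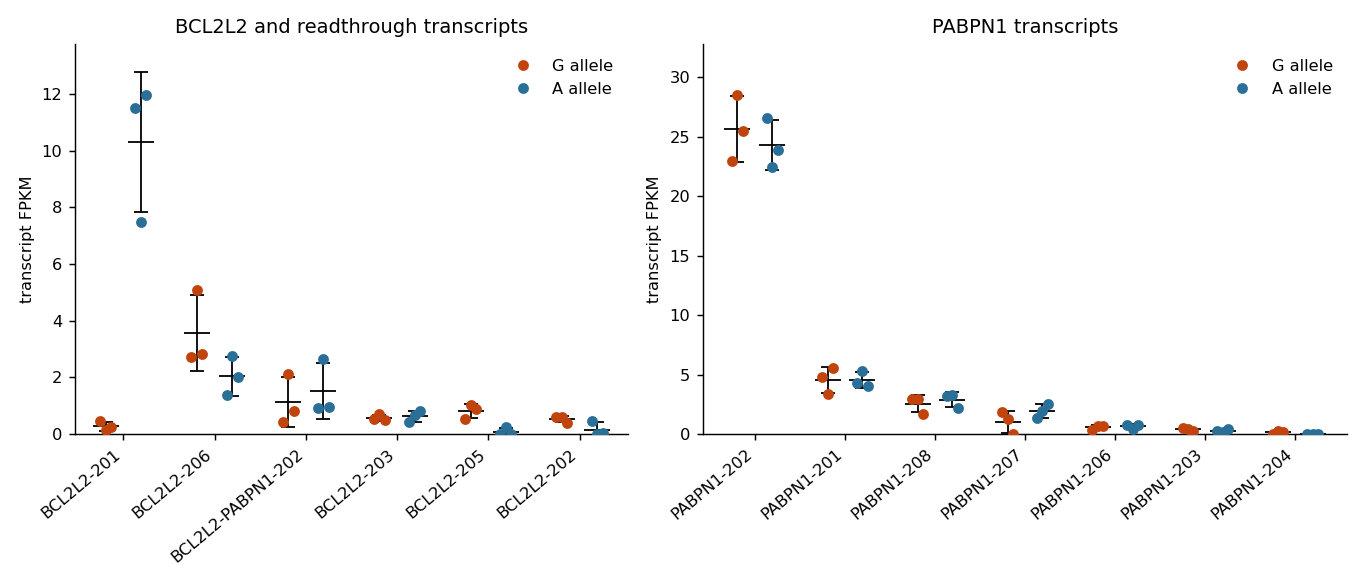
FPKM (vertical axes, linear from 0) of each transcript of the locus that reached 0.1 FPKM in a library, ordered by mean level, with G libraries left and A libraries right of each tick; points are libraries and bars are means with SD. BCL2L2-201 has the widest gap between groups, at 0.139 to 0.453 FPKM in G and 7.48 to 12.0 FPKM in A libraries, the groups of the less abundant BCL2L2-205 do not overlap either, and PABPN1-202 is the most abundant transcript in both.

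The size of the difference depended on how the transcript estimates were combined. For all 3 genes the deposited gene value equalled the length-weighted sum of the transcripts divided by the length of all exonic bases, 4189 for BCL2L2, 1548 for BCL2L2-PABPN1 and 3876 for PABPN1. The gene value of BCL2L2 thus follows its long exon 4 more than its coding exon 3. Unweighted, the transcripts of BCL2L2 summed to 4.86, 7.57 and 4.87 FPKM in G libraries, against 13.8, 11.1 and 14.8 FPKM in A libraries. That was a 2.30-fold lower sum in G, against 9.14-fold for the gene value.

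Because the 3 genes share exons, a level was also formed for each stretch of the locus by adding the FPKM of every transcript that contains it. Such sums depend less on how reads were shared out among transcripts that hold the same stretch. Over the coding part of exon 3 (23307768 to 23308199) the sum was 4.65, 8.96 and 5.17 FPKM in G libraries, against 14.2, 13.5 and 15.4 FPKM in A libraries. All G libraries were below all A libraries, and the means of 6.26 ± 2.35 FPKM in G and 14.3 ± 0.962 FPKM in A differed 2.29-fold. Over the coding part of exon 4 (23308816 to 23308965) the sum was 0.506, 0.241 and 0.341 FPKM in G libraries, against 11.5, 7.50 and 12.0 FPKM in A libraries. The drop there was 28.4-fold. Over the untranslated part of exon 4 (23308966 to 23311759) the means were 0.282 ± 0.159 FPKM in G and 10.3 ± 2.47 FPKM in A, a 36.6-fold lower level.

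In the summed FPKM of G libraries, exon 3 kept more of its level than exon 4. The untranslated part of exon 4 stood at 9.74%, 1.55% and 4.90% of the coding part of exon 3 in G libraries, against 81.2%, 55.6% and 77.9% in A libraries. This share follows the assignment of reads to BCL2L2-201 and the shorter transcripts, as no stretch was counted on its own. Averaged over all 582 coding bases of BCL2L2, stop codon included, the level was 4.74 ± 1.72 FPKM in G and 13.3 ± 1.29 FPKM in A (SD, n = 3 each), a log2 difference of -1.35. In the final 50 bases of BCL2L2-201 the polyadenylation hexamer AATAAA was found on the transcript strand, starting 34 bases from the end. Of 206604 annotated transcripts, 24.7% hold it in their final 50 bases. None of the other BCL2L2 transcripts did, but the 3′ end of the 4 with an estimate is marked as not found. Nothing is therefore read from its absence there.

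**Figure D3:**
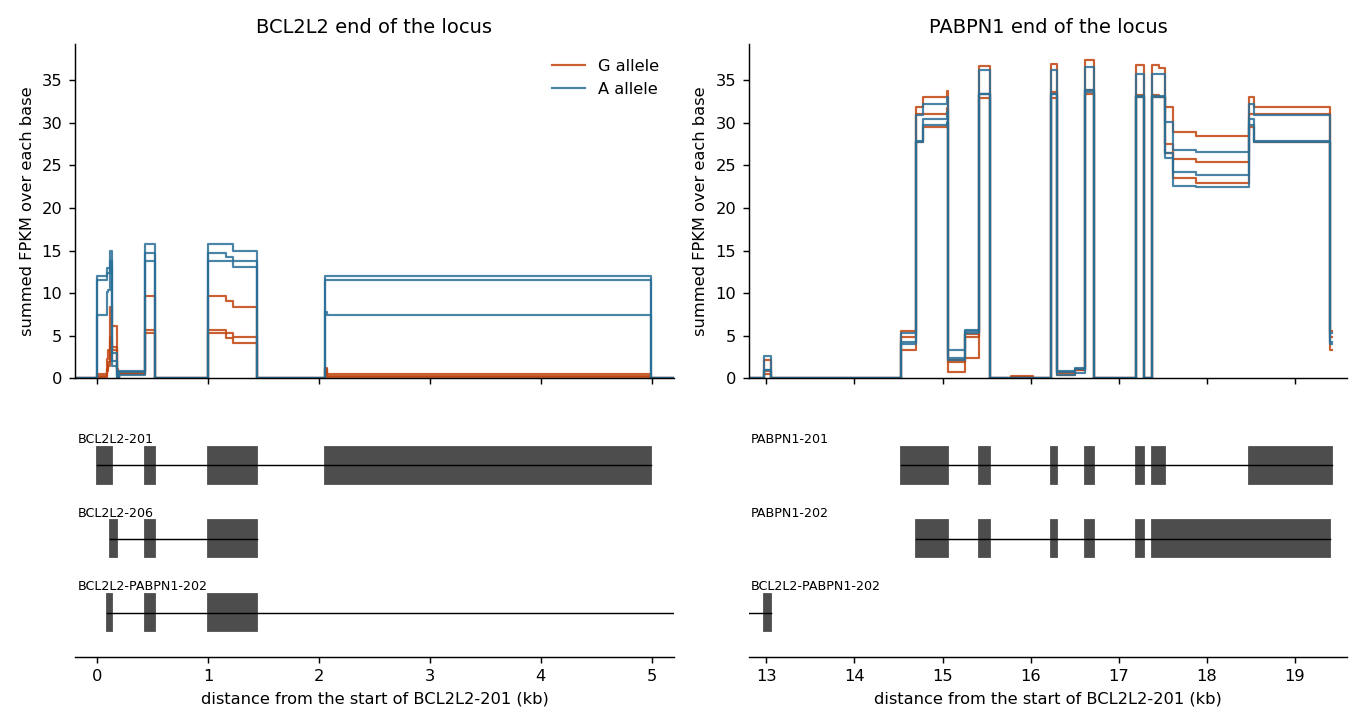
Summed FPKM of all transcripts of the locus over each base (vertical axis, linear from 0, 1 line per library) against the distance from the start of BCL2L2-201 in kilobases, for the BCL2L2 end (left) and the PABPN1 end (right), with exons of 3 transcripts as boxes below each. The A libraries lie above the G libraries over BCL2L2 exon 3, at 13.5 to 15.4 against 4.65 to 8.96 FPKM in its coding part, the gap is wider over exon 4, and lines of both groups interleave over PABPN1.

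The level deposited for the readthrough gene came from a transcript without any PABPN1 exon. BCL2L2-PABPN1-201 (ENST00000553781) and BCL2L2-PABPN1-203 (ENST00000557008), the 2 transcripts that join BCL2L2 exon 3 to PABPN1 exon 2, had no estimate in any of the 6 libraries. What remains is BCL2L2-PABPN1-202 (ENST00000556100), a processed transcript with no annotated coding sequence. It joins BCL2L2 exon 3 to an exon of 82 bases that ends 1472 bases before PABPN1 begins, and its 3′ end is marked as not found. Its level was 0.446, 2.14 and 0.807 FPKM in G libraries, against 0.919, 2.65 and 0.965 FPKM in A libraries. Replicate 2 was the highest library of each group, and the groups overlapped. These levels correspond to about 6.30 to 28.3 read pairs per G library and 12.5 to 39.8 per A library. No estimate for the coding readthrough says only that no reads were assigned to it at this depth, since its PABPN1 exons are shared with far more abundant transcripts.

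Most PABPN1 RNA was assigned to a transcript that keeps the last intron. PABPN1-202 (ENST00000397276), whose final exon runs from exon 6 through the intron of 957 bases into exon 7, was at 22.9, 28.5 and 25.4 FPKM in G libraries, against 26.6, 22.5 and 23.9 FPKM in A libraries. The groups overlapped, with a log2 difference of 0.072 ± 0.12 (SE). PABPN1-201 (ENST00000216727), the spliced mRNA of 7 exons, was at 4.79, 3.34 and 5.54 FPKM in G libraries, against 4.30, 5.33 and 4.04 FPKM in A libraries. Its means were 4.56 ± 1.12 FPKM in G and 4.56 ± 0.681 FPKM in A (SD, n = 3 each). The intron-holding form made up 73.3% ± 4.12 of the summed PABPN1 transcript FPKM in G libraries and 70.1% ± 2.97 in A libraries.

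The minor PABPN1 transcripts overlapped between the groups as well. PABPN1-208 (ENST00000557702), which ends shortly after exon 6, was at 2.99, 2.95 and 1.72 FPKM in G libraries, against 3.24, 3.30 and 2.18 FPKM in A libraries. PABPN1-207 (ENST00000556821), which keeps the first intron and splices out the last, was at 1.82, 1.25 and 0.015 FPKM in G libraries, against 1.37, 1.93 and 2.55 FPKM in A libraries. Only G replicate 3 had almost none of it. The retained-intron transcripts PABPN1-206 (ENST00000556809) and PABPN1-203 (ENST00000553960) stayed between 0.306 and 0.691 FPKM in G and between 0.144 and 0.802 FPKM in A libraries. PABPN1-204 (ENST00000554062) had an estimate only in G replicates 2 and 3, at 0.252 and 0.194 FPKM, and PABPN1-205 (ENST00000555295) had none. PABPN1-201 and PABPN1-202 hold AATAAA in their final 50 bases, starting 30 and 8 bases from the end.

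Over the 6 PABPN1 exons that the readthrough shares, summed transcript FPKM was 32.8, 36.6 and 33.3 in G libraries, against 35.8, 33.1 and 33.1 in A libraries, and the groups overlapped. Over the last intron it was 26.0 ± 2.78 FPKM in G and 24.7 ± 2.13 FPKM in A. As a share of exon 6, the last intron stood at 70.8%, 79.0% and 77.6% in G libraries, against 75.4%, 68.8% and 73.3% in A libraries. A continuous exon across intron and exon 7 is how the annotation describes PABPN1-202, so this share follows the assignment of reads to that transcript.

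**Figure D4:**
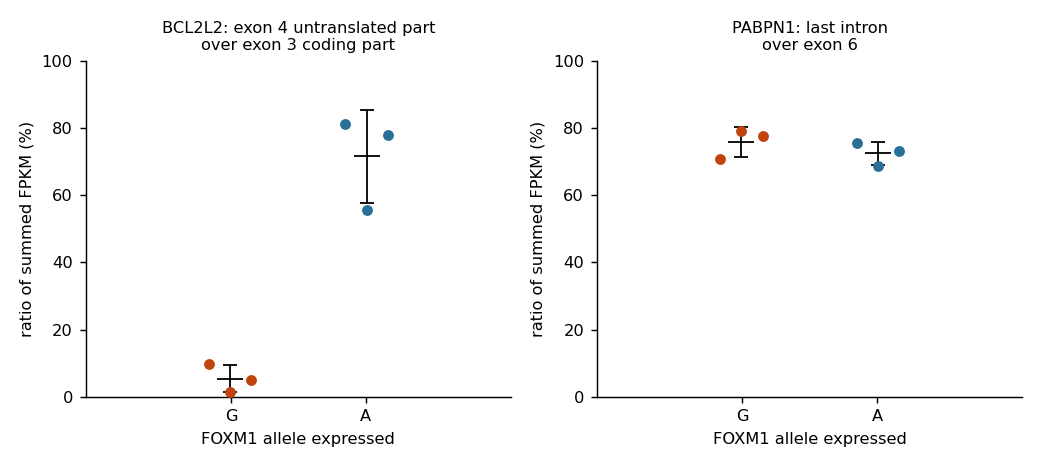
Ratio of summed FPKM between 2 stretches of the same gene, in percent from 0 to 100, in G libraries (left in each panel) and A libraries (right), with means and SD. The untranslated part of BCL2L2 exon 4 is at 1.55% to 9.74% of the coding part of exon 3 in G and at 55.6% to 81.2% in A libraries, whereas the PABPN1 last intron is at 70.8% to 79.0% of exon 6 in G and 68.8% to 75.4% in A libraries.

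Weighted by transcript length, the summed level of the whole locus was lower in G libraries, and the difference lay in BCL2L2. FPKM times kilobases, summed over the 17 transcripts, was 82.9, 96.9 and 88.1 in G libraries, against 130.7, 109.1 and 125.5 in A libraries. The groups did not overlap, and the log2 difference was -0.44. BCL2L2 accounted for 4.26 ± 0.625 of this sum in G and 38.9 ± 8.53 in A, PABPN1 for 84.3 ± 6.09 in G and 81.9 ± 4.81 in A, and the readthrough gene for 0.741 ± 0.584 in G and 0.989 ± 0.644 in A. Per base, the coding part of BCL2L2 exon 3 reached 14.2%, 24.5% and 15.5% of the level of the shared PABPN1 exons in G libraries, against 39.5%, 40.7% and 46.3% in A libraries.

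Transcript estimates differed widely elsewhere in the tables too. Among 12632 transcripts with a mean of at least 5 FPKM in either group, 189 (1.5%) had a mean at least 16-fold lower in G and 219 (1.73%) one at least 16-fold higher. In 88 (0.697%) such a difference came with groups that did not overlap. Swings also occurred inside the groups. Of 11240 transcripts with a mean of at least 5 FPKM in G libraries, 9.62% differed at least 16-fold between the highest and lowest G library. For the A libraries the share was 9.15% of 11017 transcripts. BCL2L2-201 ranged from 0.139 to 0.453 FPKM in G and from 7.48 to 12.0 FPKM in A libraries. With a mean of 0.282 FPKM in G libraries, it was not among the 11240 transcripts counted for G.

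The tested relatives of BCL-w that also restrain BAX and BAK were not called, in a fit that called 0.109% of all tested genes. MCL1 was at 56.9 ± 3.18 FPKM in G and 55.1 ± 1.59 FPKM in A (limma adjusted p = 0.71), and BCL2L1, which encodes BCL-xL, was at 32.8 ± 7.81 FPKM in G and 38.2 ± 2.89 FPKM in A (limma adjusted p = 0.51). BCL2 was below 0.1 FPKM on average in both groups, and BCL2A1 and BCL2L10 had no estimate. MCL1 and BCL2L1 thus had higher gene FPKM than BCL2L2 in both groups. Of 16 other BCL2 family genes 13 were tested and 0 were called by limma-trend, with 3 at an unadjusted p under 0.05. Over all 12787 tested genes 14 (0.109%) were called, so a count of 0 in a short list says little. Of the 12787, 2212 (17.3%) had an unadjusted p under 0.05 and 7045 (55.1%) a positive log2 difference. Groups did not overlap for 3 of the 13 (BAX, BBC3 and BID, all with G below A), against 3190 of all tested genes in either direction. The median of the BCL2 family was -0.081, against 0.022 over all tested genes. BBC3, which encodes the BH3-only protein PUMA, had the most negative value, at 4.36 ± 0.28 FPKM in G and 5.90 ± 0.354 FPKM in A (limma adjusted p = 0.16). BCL2L11, which encodes the BH3-only protein BIM, had the largest positive value, at 8.16 ± 2.72 FPKM in G and 6.42 ± 4.41 FPKM in A (limma adjusted p = 0.67).

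Genes that act with PABPN1 in making poly(A) tails were likewise not called. All 20 cleavage and polyadenylation genes were tested and 0 were called, against 0.109% of all tested genes. An unadjusted p under 0.05 was found for 1 (5%), against 17.3% of all tested genes. Their median log2 difference was 0.031. CSTF2, a subunit of the cleavage stimulation factor, was at 6.65 ± 0.517 FPKM in G and 5.90 ± 0.306 FPKM in A (limma adjusted p = 0.36). The phosphatase gene SSU72 was at 9.78 ± 0.103 FPKM in G and 11.0 ± 0.689 FPKM in A (limma adjusted p = 0.28). Of 8 other poly(A) binding protein genes 4 were tested and 0 were called (0.109% of all tested genes were). Among the 4, 1 had an unadjusted p under 0.05 (17.3% of all tested genes did), and the median was -0.046. The main cytoplasmic poly(A) binding protein gene PABPC1 was at 366.4 ± 11.8 FPKM in G and 379.6 ± 42.7 FPKM in A (limma adjusted p = 0.80). PABPC4 was at 27.4 ± 0.239 FPKM in G and 28.4 ± 0.707 FPKM in A (limma adjusted p = 0.63). PABPC1L had the largest positive value, at 6.95 ± 1.09 FPKM in G and 5.07 ± 0.719 FPKM in A (limma adjusted p = 0.23), and ZC3H14, a nuclear poly(A) binding zinc finger gene, the most negative, at 0.964 ± 0.085 FPKM in G and 1.08 ± 0.113 FPKM in A (limma adjusted p = 0.66).

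PABPN1 also hands polyadenylated nuclear RNA to the exosome, through an adaptor built on ZFC3H1 and the helicase MTREX. Of 11 genes of the nuclear exosome and its adaptors tested, 0 were called, against 0.109% of all tested genes. An unadjusted p under 0.05 was found for 3 of the 11, against 17.3% of all tested genes, and a positive log2 difference for 9, against 55.1% of all tested genes. Groups did not overlap for 5 of the 11, all with G above A, against 3190 of 12787 tested genes in either direction. The median log2 difference of the 11 was 0.10. ZFC3H1 had the largest, at 7.19 ± 0.205 FPKM in G and 5.47 ± 0.553 FPKM in A (log2 difference 0.34 ± 0.079 SE, limma adjusted p = 0.18). ZC3H3, a zinc finger partner of that adaptor, had the most negative value, at 9.29 ± 1.17 FPKM in G and 9.93 ± 0.308 FPKM in A (limma adjusted p = 0.63).

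Of the genes around the locus, none that was tested was called. Within 250 kb on either side lie 31 other genes, of which 10 were tested and 0 were called, against 0.109% of all tested genes. An unadjusted p under 0.05 was found for 2, a share of 20% against 17.3% of all tested genes. Of the 10, 5 had a positive and 5 a negative log2 difference, with a median of -0.014. NGDN had the most negative, at 3.20 ± 0.338 FPKM in G and 4.51 ± 0.428 FPKM in A (limma adjusted p = 0.18). THTPA, a thiamine triphosphatase gene, had the most positive, at 1.56 ± 0.134 FPKM in G and 0.985 ± 0.086 FPKM in A (limma adjusted p = 0.18). PPP1R3E lies on the minus strand across the upstream start of BCL2L2-202 and was at 1.12 ± 0.618 FPKM in G and 0.847 ± 0.37 FPKM in A (limma adjusted p = 0.73). The library protocol puts dUTP into the second strand, but the strand setting of the counting is not given in the sources used here, so reads of PPP1R3E and BCL2L2-202 may not be told apart. The same holds for HOMEZ, whose minus-strand span ends at 23299447, past the start of BCL2L2-202, and which was at 3.93 ± 0.391 FPKM in G and 4.25 ± 0.218 FPKM in A (limma adjusted p = 0.58).

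**Figure D5:**
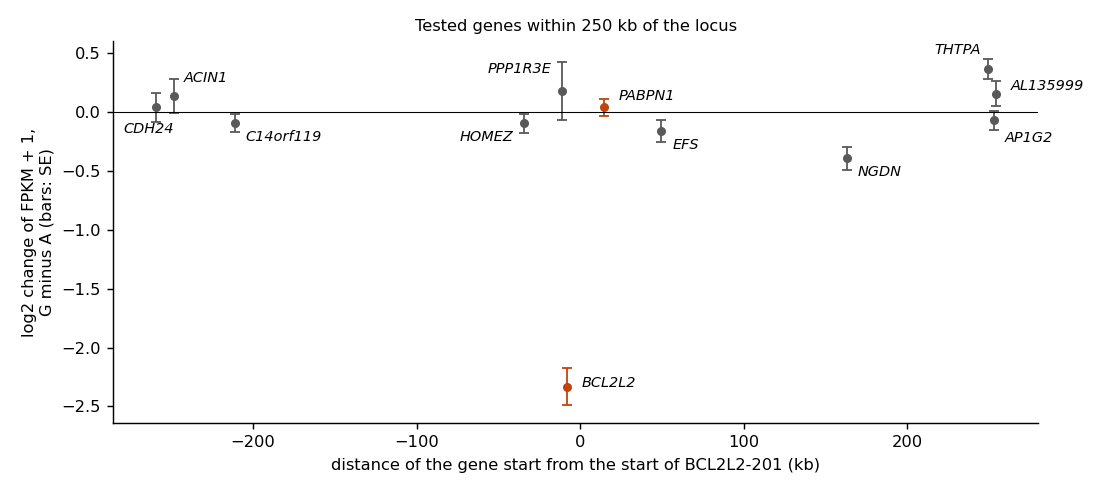
G minus A difference of log2(FPKM + 1) with SE bars (vertical axis) for the 10 tested genes within 250 kb of the locus. BCL2L2 and PABPN1 are shown too. The horizontal axis is the distance of each gene's lowest position from the start of BCL2L2-201 in kilobases. For minus-strand genes that position is the 3′ end. BCL2L2 lies at -2.33, PABPN1 at 0.039 and the 10 neighbours between -0.39 and 0.37.

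Genes whose log2 levels followed BCL2L2 most closely over the 6 libraries were ADAR (Pearson r = 0.998), which encodes an RNA-editing deaminase, AC007114 (r = 0.993) and GOLPH3 (r = 0.989), a Golgi membrane gene. ADAR was at 18.9, 19.1 and 18.5 FPKM in G libraries, against 25.0, 23.2 and 25.2 FPKM in A libraries. Among the most opposite genes were the metallothionein gene MT1X (r = -0.997) and APLP2 (r = -0.994). With 6 libraries in 2 separated groups a high r says little, and the genes named are the extremes of all tested genes. Among the 12787 tested genes 247 others had r over 0.9 with BCL2L2. PABPN1 was followed most closely by PLXNB2 (r = 0.992), ITM2C (r = 0.986) and EHMT1 (r = 0.982), and 109 genes had r over 0.9. RHOF (r = -0.987), HNRNPCP2 (r = -0.983) and AL035446 (r = -0.982) were its most opposite genes.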

How the data were processed

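The authors deposited FPKM per gene and per transcript (fragments per kilobase of transcript, scaled to library depth, per the file headers), where 0.0001 stands for no estimate. The submitters' processing notes name cutadapt 1.9, HISAT2 2.0.4 and StringTie 1.3.4d. They also name a mouse build, but the features are human: of 206348 transcripts found in GENCODE 29 (GRCh38), 94.6% had the same position. Per the file headers, the authors also deposited the G over A fold ratio with its log2 form, as well as p-values and q-values. Depth was estimated from the step that 1 read pair makes in single-exon genes over 400 bases. Only 28.1% to 30.9% of low values were whole read pairs within 0.02, so no count model was used.

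Features reaching 1 FPKM in 3 or more of the 6 libraries (12787 genes, 29990 transcripts) were fitted as log2(FPKM + 1) with limma-trend (limma 3.58.1, R 4.3.3), a scale that understates changes of low genes, with Benjamini-Hochberg adjustment over all features and a threshold of 0.05. The fit was tested on simulated data with 200 changed features, where the folds are of FPKM + 1. For low features the same fold of FPKM is a smaller change on this scale, so recovery is overstated there. For genes the fit recovered 84.5% of 2-fold and 96% of 4-fold changes of FPKM + 1, with 12 and 13 false calls. For transcripts it recovered 4% and 40%, with 2 and 4 false calls. Transcript sums per base used GENCODE 29 exons, in Python 3.11.15 with pandas 2.3.3. Named genes were the members, called list genes, close paralogs, the extremes of each list and the 3 likest and least like genes, of which 1 is not reported here. Members and lists were chosen with earlier results of these data known. MPP6 was taken off the exosome list because the symbol names another gene. Alternatives changed the pseudocount, scaling, filter, variance model, block and libraries.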

Additional observations from a re-analysis of the deposited data

How the results depend on the processing

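The count of called genes was 14, and it was 6 with quantile normalization, 1 without a filter, 4 without an intensity trend and 5 to 20 when 1 library was left out: 10, 6 and 5 without G replicates 1, 2 and 3, and 20, 5 and 5 without A replicates 1, 2 and 3. The count of called transcripts was 44, and it was 23 and 0 with pseudocounts of 0.1 and 0.01 (2161 at an unadjusted p under 0.05 in limma with 0.01), 7 without a filter, and 7 to 37 when 1 library was left out: 15, 16 and 17 without G replicates 1, 2 and 3, and 37, 27 and 7 without A replicates 1, 2 and 3. With replicate number as a block, limma called 0 genes (2148 at an unadjusted p under 0.05) and 0 transcripts (1925). Deviations of same-numbered libraries correlated at 0.073, 0.015 and 0.04 across genes, and those of differently numbered ones at -0.056 to 0.016. G replicates 1 and 3 correlated best with the A replicate of their own number. G replicate 2 correlated almost alike with A replicates 2 and 3 (0.0154 and 0.0155). As all these values are small, the numbers were not taken as pairs, but a weak pairing cannot be told from none here.

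The BCL2L2 difference was -2.33, and it was -3.06 and -3.16 with pseudocounts of 0.1 and 0.01, -1.09 from the unweighted sum of its transcripts and -2.51 to -2.23 when 1 library was left out. The difference of BCL2L2-PABPN1 was -0.52 with a pseudocount of 0.01 and ran from -0.35 to 0.05 when 1 library was left out; it was not in the quantile fit. Scaling libraries to equal sums put the median of all genes at 0.11 (0.022 unscaled), PABPN1 at 0.14 and its shared exons at 0.087. Leaving out 1 library gave -0.01 to 0.09 for PABPN1, -0.04 to 0.05 for its shared exons, -1.58 to -1.21 for the BCL2L2 coding exons and -0.52 to -0.39 for the locus sum. The list counts were 0 under the 3 other scalings. The causes were not tested. At 10.2 to 35.2 read pairs per G library, BCL2L2-201 was measured with large counting error there.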

Other observations

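In both groups replicate 2 had the lowest BCL2L2-201 and the highest BCL2L2-206 and BCL2L2-PABPN1-202. BCL2L2-201 was at 0.139 FPKM in G replicate 2, against 0.453 and 0.254 FPKM in G replicates 1 and 3, and at 7.48 FPKM in A replicate 2, against 11.5 and 12.0 FPKM in A replicates 1 and 3. BCL2L2-206 was at 5.10 FPKM in G replicate 2 and 2.75 FPKM in A replicate 2. The labels do not say that a replicate number marks a shared batch.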
